A study of Mus musculus with 5 samples.

Results

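Translation initiation and elongation factors are the soluble proteins that bring ribosomes, initiator tRNA and mRNA together and then carry the ribosome along the message. The members described here are the genes whose symbol starts with Eif or Eef, without the eIF2 kinases Eif2ak1 to Eif2ak4, the Y-linked Eif2s3y and pseudogenes. A gene entered when a probe set carried its symbol and no other, and where several did, the probe set with the highest mean over the 5 arrays was taken. This gave 59 genes, from 64 probe sets, among the 22059 genes with a tested probe set. Of these, 58 fall into the factor groups used below, and Eif2c5 matches by symbol only, since it carries an Argonaute-type name and is annotated as a long non-coding RNA. Its value was 2.77 on every array. Eif1, Eif2s1, Eif2s3x, Eif3g, Eif3j2, Eif4ebp3, Eif4g1 and Eef1akmt4 were not analysed here.

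In initiation, the GTP-binding factor eIF2 delivers the initiator tRNA to the small ribosomal subunit, eIF2B reloads eIF2 with GTP, eIF3 scaffolds the small subunit, and the eIF4 factors bind the mRNA cap and unwind the leader. In elongation, eEF1A brings charged tRNAs, the eEF1B subunits recycle eEF1A, and eEF2 moves the ribosome by a codon. When the endoplasmic reticulum is stressed, the kinase PERK phosphorylates eIF2, which inhibits eIF2B and lowers initiation. That control acts on proteins, whereas the arrays measured mRNA.

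RNA was taken from tunicamycin-treated primary astrocytes of mice carrying a LRRK2 transgene with the Parkinson's disease mutation G2019S (LRRK2-GS, 3 arrays) or a wild-type LRRK2 transgene (LRRK2-WT, 2 arrays). Both lines were on the FVB background and heterozygous for the transgene, and cells came from the cortex of 1-day-old pups. Per the labels, both genotypes received 0.2 μg/ml tunicamycin, a blocker of N-linked glycosylation, for 3 h, while the text of the study gives a longer treatment and a figure legend of it another dose, so neither dose nor time is settled. No untreated array was analysed here, so each value compares genotypes under the drug. The promoter that drives the transgenes was not stated. Nothing in the labels or methods tells whether the arrays of a genotype came from separate cultures, so the p-values below rest on how far the 5 arrays differ, and that may be technical spread alone.

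Values are log2 signals as deposited. A difference is the LRRK2-GS mean minus the LRRK2-WT mean of these log2 signals. The median over all probe sets was 3.27 to 3.28 on the LRRK2-GS arrays and 3.26 on both LRRK2-WT arrays, and Pearson's r between arrays was 0.986 to 0.994. The astrocyte label was checked against markers. Of 14 astrocyte markers, 10 lay above the background level and 3 (Aldh1l1, Glul and Slc4a4) above the 90th percentile of all tested probe sets on every array, whereas Slc1a3, Aqp4, S100b and Gjb6 were at or below background. Of 18 measured hepatocyte markers, 17 lay above that percentile on every array, with a median level of 11.25. The data thus go against the label, and the factor levels below are those of the RNA on the arrays, whatever cells it came from. Xist, transcribed from the inactive X chromosome, read 2.41 to 2.65 on the LRRK2-GS arrays and 8.09 to 8.49 on the LRRK2-WT arrays, and the Y-linked Eif2s3y 6.13 to 6.68 on the LRRK2-GS arrays and 2.03 to 2.31 on the LRRK2-WT arrays, so that genotype and sex of the source cannot be told apart. In such bulk samples fewer cells of a type and less RNA per cell cannot be told apart either.

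Most translation factor probe sets read above background, and none of the members differed by more than 1.5-fold between the genotypes. Background was taken from 1107 probe sets of olfactory receptors, as the 95th percentile of their means (3.39). By this measure, 53 of the 59 members lay above it, and 27 lay above the 90th percentile of all tested probe sets (6.42). Mean levels ran from 2.01 (Eif4e1b, a cap-binding protein known from oocytes) to 12.46 (Eif4a1, the helicase of the cap-binding complex), with a median of 6.15 against 3.59 over all tested probe sets. The 6 members at or below background were Eif4a3, Eif4a3l1, Eif4e1b, Eif5a2, Eef1akmt3 and Eif2c5. None of the 59 members was called by limma, which required more than 1.5-fold and a Benjamini-Hochberg adjusted p not above 0.05, and the same rule called 0% of the 23396 probe sets tested. Their smallest adjusted p was 0.826. Before adjustment 2 members, Eif3l and Eif4a3l1, were under the 0.05 threshold in limma, as were 2.09% of all tested probe sets. Over 1.5-fold were 0 members and 0.957% of all tested probe sets. By the methods' t-test 0 members and 0 of all tested probe sets were called. Before adjustment 1 member passed that test, and the share over all tested probe sets was not taken.

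By direction, 32 members were higher on the LRRK2-GS arrays, 23 lower and 4 equal, and the median difference was 0.01. Over all tested probe sets 48.8% were higher and 42.7% lower, and their median was 0.00. Differences ran from -0.39 (Eif4a3l1) to 0.37 (Eef1e1, a component of the complex that holds several aminoacyl-tRNA synthetases). All 3 LRRK2-GS arrays lay above both LRRK2-WT arrays for 2 members, Eif4a1 and Eif4e1b, and this held for 3.76% of all tested probe sets. They lay below both for 3 members, Eif3l, Eif4a3l1 and Eif4ebp2, and for 3.74% of all tested probe sets. The members' counts are thus near those shares. Tied values limit such counts: 38 members had the same value on at least 2 arrays, as had 77.8% of all tested probe sets. For Eif4e (6.72), the cap-binding protein itself, Eif2d (5.14) and Eef1akmt1 (4.07) all 5 arrays held the same value, and what made these ties is not known from the methods. The 5 values of Eef1akmt1 equalled those of 9 other probe sets, those of Eif2d 2 others and those of Eif2c5 1 other. Of all tested probe sets, 8.33% shared their 5 values with another. Whether such values measure the named gene was not tested.

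**Figure D1:**
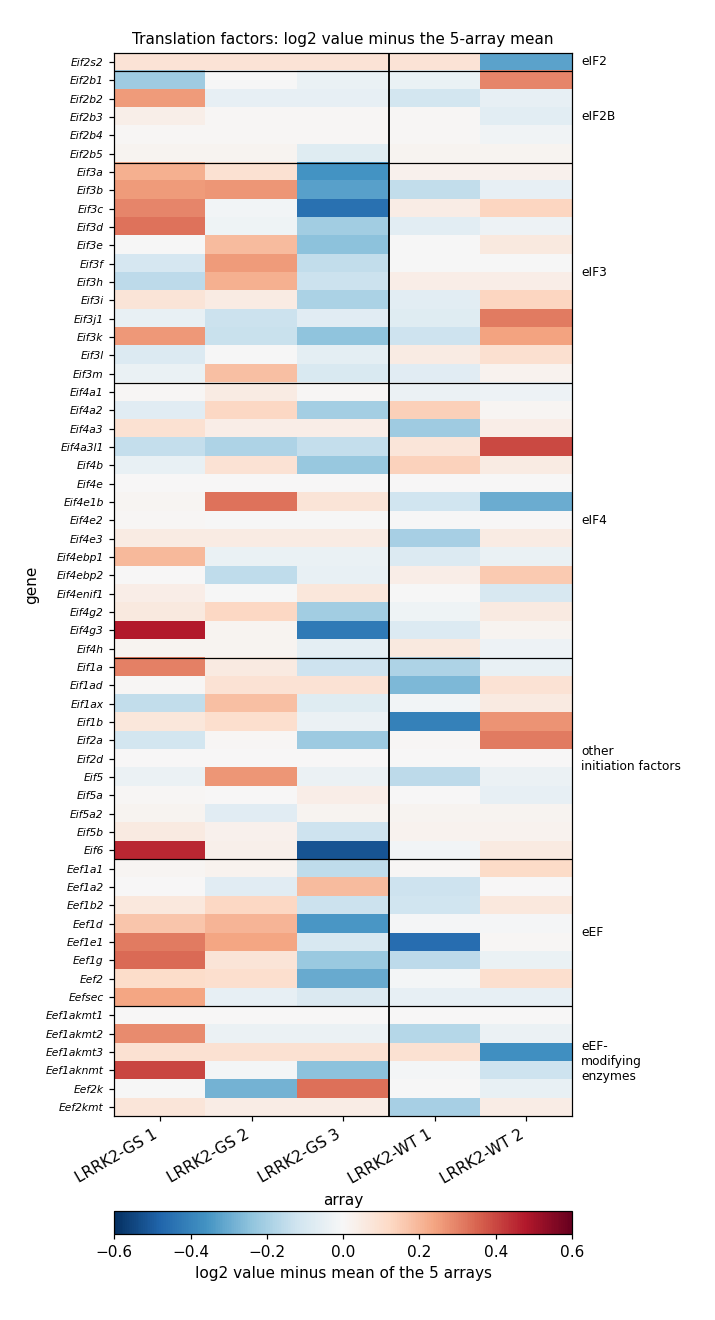
Heat map of the 58 members in factor groups (rows) on the 3 LRRK2-GS arrays and 2 LRRK2-WT arrays (columns), where colour gives the log2 value minus the mean of that gene over the 5 arrays. LRRK2-GS array 3 is blue over most of the eIF3 and eEF rows, while LRRK2-GS arrays 1 and 2 are both red in Eif3a, Eif3b, Eef1d, Eef1g and Eef2.

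The broadest pattern lay within the LRRK2-GS arrays. LRRK2-GS array 3 held the lowest value of the 5 arrays, without a tie, for 25 of the 59 members (42.4%), against 17.8% of all tested probe sets. Probe sets of high level shared some of this, with 31.0% of all those above the 90th percentile, against 63.0% of the 27 members above it. By group, array 3 was lowest in 9 of 12 eIF3 genes and 6 of 8 eEF genes. LRRK2-GS arrays 1 and 2 lay above both LRRK2-WT arrays for 12 members, where 8.55% of all tested probe sets did so, and below both for 3 members, against 7.55%. For 8 of these 12, array 3 at the same time lay below both LRRK2-WT arrays. These were Eif3a, Eif3b, Eif3d, Eif4g2, Eif5b, Eef1d, Eef1g and Eef2, or 13.6% of the members. The same held for 2.28% of all tested probe sets. Above the 90th percentile it held for 25.9% of the 27 members, against 7.48% of all tested probe sets. At or below that percentile it held for 3.12% of the 32 members. These counts describe 5 arrays and were not tested.

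Eif3a, the largest scaffold subunit of eIF3, read 9.22, 9.10 and 8.65 on LRRK2-GS arrays 1, 2 and 3, against 9.03 on both LRRK2-WT arrays. Eif3b, which holds the other part of the eIF3 core, read 8.10, 8.11 and 7.52 on the LRRK2-GS arrays, against 7.70 and 7.80 on the LRRK2-WT arrays. Eef2, the translocase, read 10.99, 10.98 and 10.58 on the LRRK2-GS arrays, against 10.87 and 10.98 on the LRRK2-WT arrays. These genes were picked by that order of arrays. A gap between LRRK2-GS array 3 and the other LRRK2-GS arrays wider than that between the LRRK2-WT arrays follows from the choice and is no further result. Eef1d and Eef1g, subunits of the eEF1B exchange complex, followed the same order: Eef1d read 7.49, 7.53 and 6.98 on the LRRK2-GS arrays, against 7.32 on both LRRK2-WT arrays. Eef1g read 7.70, 7.43 and 7.13 on the LRRK2-GS arrays, against 7.20 and 7.32 on the LRRK2-WT arrays. By the same choice the LRRK2-GS groups straddle the LRRK2-WT values in these 5 genes. Their genotype differences lay between -0.07 (Eef2) and 0.16 (Eif3b and Eef1g).

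Without LRRK2-GS array 3 the median difference of the members was 0.06, with 40 higher and 14 lower, against 0.01 on all 5 arrays. Leaving it out gave 10957 higher and 9368 lower over all tested probe sets, with a median of 0.00, and 1062 higher and 1250 lower above the 90th percentile, with a median of -0.01. The eIF3 median was then 0.06 with 9 of 12 genes higher, against -0.05 with 4 of 12 higher, so its direction turned with that array. The eEF median was 0.13 without array 3 and 0.07 with it. LRRK2-GS array 3 was singled out above because it was often the lowest in these genes. Higher medians of the members, eIF3 and eEF without array 3 follow from that choice and are no further result. No member was called without array 3 either, and the smallest adjusted p was 0.671 (limma). Over the members the median SD was 0.13 among the LRRK2-GS arrays and 0.06 among the LRRK2-WT arrays. The LRRK2-GS arrays also had the larger median SD over all tested probe sets (0.09, against 0.04) and above the 90th percentile (0.17, against 0.07). These SDs rest on 3 and 2 arrays. At equal spread an SD of 2 values tends to be the lower, and tied LRRK2-WT values give an SD of 0. The SDs therefore cannot tell whether the LRRK2-GS arrays truly varied more. Beside these shifts, the summed signal of the 18 hepatocyte markers was 15.30, 15.36 and 15.52 (log2) on LRRK2-GS arrays 1, 2 and 3, against 15.50 and 15.53 on the LRRK2-WT arrays. All 8 endothelial markers were lower on the LRRK2-GS arrays (median difference -0.23), with summed signals of 8.80, 8.68 and 8.83 on the LRRK2-GS arrays, against 9.19 and 8.89 on the LRRK2-WT arrays. The 14 astrocyte markers summed to 9.48, 9.66 and 9.74 on the LRRK2-GS arrays, against 9.93 and 9.72 on the LRRK2-WT arrays. Aldh1l1, Glul and Slc4a4 (means 7.78, 7.36 and 7.99) dominate that sum, while Gfap averaged 4.11. Whether the signal of these genes came from astrocytes was not tested. The part of cell makeup in the values of LRRK2-GS array 3 was not tested.

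**Figure D2:**
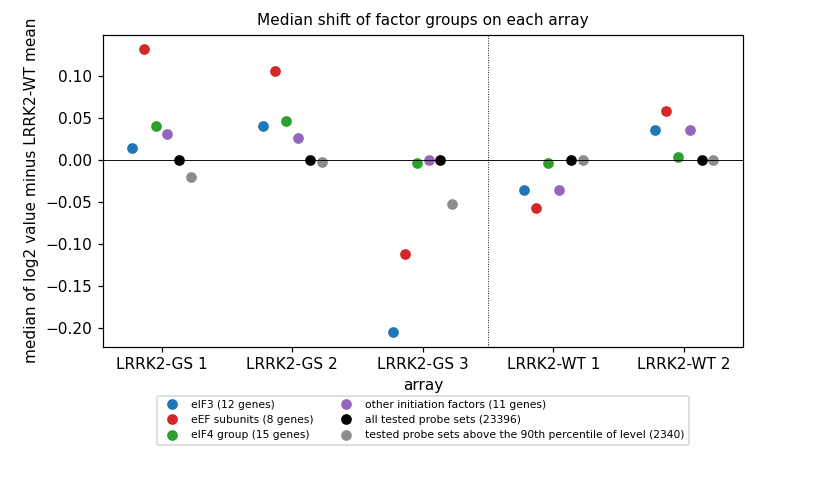
Median over the genes of a factor group (colours) of the log2 value minus the LRRK2-WT mean, for each of the 3 LRRK2-GS and 2 LRRK2-WT arrays, with all 23396 tested probe sets in black and those above the 90th percentile of level in grey. The eIF3 median was 0.01 and 0.04 on LRRK2-GS arrays 1 and 2 and -0.20 on array 3, and the eEF median was 0.13, 0.11 and -0.11, while the median of all probe sets was 0.00 on each array and the LRRK2-WT points mirror each other by construction.

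**Figure D3:**
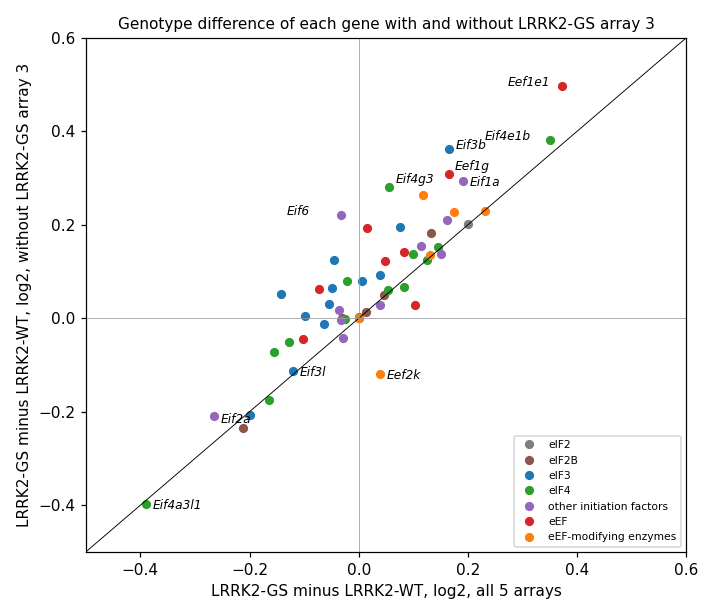
Difference of each of the 58 members (points, coloured by factor group) between LRRK2-GS and LRRK2-WT on all 5 arrays (x axis, log2) and without LRRK2-GS array 3 (y axis, log2), with the line of equal values. Most points lie above the line, and 40 members were higher without array 3, against 32 with it.

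For the 8 genes chosen above by this split order, the 250 bases upstream of their start sites are shown for the 5 that the RefSeq promoter table holds (GRCm38.p6), each 5′ to 3′ on the strand of the gene. The windows are chr19:60790694-60790943 (minus strand) for Eif3a, chr5:140419055-140419304 (plus) for Eif3b, chr15:77970825-77971074 (minus) for Eif3d, chr1:37997760-37998009 (plus) for Eif5b and chr10:81176381-81176630 (plus) for Eef2. Capitals mark the motifs CACGTG (E-box), CCGGAAG (ETS type) and TATAAA (the core promoter box of that name), searched on both strands together with TGACGTCA and TGATGNAAT.
Eif3a: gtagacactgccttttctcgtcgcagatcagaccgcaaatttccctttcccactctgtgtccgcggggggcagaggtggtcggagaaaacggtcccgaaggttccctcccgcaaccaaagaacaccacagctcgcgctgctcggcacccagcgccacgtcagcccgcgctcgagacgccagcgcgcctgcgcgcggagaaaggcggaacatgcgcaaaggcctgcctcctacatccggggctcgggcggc
Eif3b: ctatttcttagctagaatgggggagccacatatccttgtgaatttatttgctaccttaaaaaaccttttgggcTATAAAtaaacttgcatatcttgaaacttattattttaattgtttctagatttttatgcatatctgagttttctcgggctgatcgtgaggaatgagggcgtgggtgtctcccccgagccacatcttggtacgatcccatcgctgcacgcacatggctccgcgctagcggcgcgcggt
Eif3d: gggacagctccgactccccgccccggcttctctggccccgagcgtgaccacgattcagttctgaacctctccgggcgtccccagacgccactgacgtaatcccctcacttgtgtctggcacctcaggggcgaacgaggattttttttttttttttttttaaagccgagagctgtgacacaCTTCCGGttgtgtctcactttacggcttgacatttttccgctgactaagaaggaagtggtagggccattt
Eif5b: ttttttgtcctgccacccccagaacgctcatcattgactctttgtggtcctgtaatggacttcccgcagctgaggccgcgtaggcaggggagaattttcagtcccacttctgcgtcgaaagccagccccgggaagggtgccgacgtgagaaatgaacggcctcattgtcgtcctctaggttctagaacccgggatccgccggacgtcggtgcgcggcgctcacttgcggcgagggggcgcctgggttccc
Eef2: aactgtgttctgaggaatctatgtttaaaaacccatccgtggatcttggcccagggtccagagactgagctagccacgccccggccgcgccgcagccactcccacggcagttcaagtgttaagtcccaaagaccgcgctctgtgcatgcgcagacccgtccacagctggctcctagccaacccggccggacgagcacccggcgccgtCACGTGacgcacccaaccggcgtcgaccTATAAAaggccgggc
Capitals fall on an E-box 43 bases and a TATA box 15 bases before the start of Eef2, a TATA box 177 bases before that of Eif3b, and an ETS-type motif, read on the opposite strand, 70 bases before that of Eif3d. In Eif3a and Eif5b no searched motif lay in these 250 bases. The motif counts below also cover the 50 bases after each start and further windows of a gene, which are not shown. Somewhere in these Eif3a holds CACGTG and Eef2 holds TGACGTCA, the only member with that motif. The table matched 44 of the 59 members with 58 windows, each running from 250 bases before to 50 bases after a start. CACGTG was in 24.1% of the members' windows, against 7.15% of all windows and 7.84% of those of protein-coding genes. CCGGAAG was in 31.0%, against 8.86% of all windows and 11.6% of protein-coding ones. TATAAA was in 5.17%, against 13.6% of all windows, and TGACGTCA in 1.72%, against 1.79%. TGATGNAAT, the composite site of ATF4 with C/EBP factors, had 0 matches in the 58 windows, against 0.965% of all windows. CACGTG and CCGGAAG do not overlap in letters, and a window could hold both. A match describes letters only and is no evidence that a factor was bound.

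Of the eIF2 trimer, the beta subunit Eif2s2 is the only member. The alpha subunit Eif2s1 had no tested probe set, and the probe sets of the X-linked gamma subunit Eif2s3x carry a second symbol. The rule leaves out the Y-linked gamma subunit Eif2s3y, whose values stand above beside those of Xist (difference 4.24). Eif2s2 read 5.64 on all 3 LRRK2-GS arrays, against 5.64 and 5.24 on the LRRK2-WT arrays. The difference of 0.20 therefore rested on LRRK2-WT array 2 and was 0.00 without it. The 5 eIF2B subunits, the exchange factor that PERK signalling inhibits, had 3 higher and 2 lower, with a median of 0.01. Eif2b1, the alpha subunit, read 4.96, 5.17 and 5.14 on the LRRK2-GS arrays, against 5.14 and 5.46 on the LRRK2-WT arrays (difference -0.21, SE 0.14, and -0.05 without LRRK2-WT array 2). Eif2b2, the beta subunit, read 5.39, 5.08 and 5.08 on the LRRK2-GS arrays, against 5.02 and 5.08 on the LRRK2-WT arrays (difference 0.13, SE 0.12). In both genes the groups tied. In Eif2b1 LRRK2-WT array 2 was highest and LRRK2-GS array 1 lowest, and in Eif2b2 LRRK2-GS array 1 stood above the other 4 arrays. Eif2b3 (0.05), Eif2b4 (0.01) and the catalytic subunit Eif2b5 (-0.03) differed by less, and the array values of Eif2b4 spanned 0.03 in all.

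Of the 12 eIF3 subunits 4 were higher on the LRRK2-GS arrays and 8 lower (median difference -0.05). Eif3l, a subunit of the octamer core, gave the smallest p of the members. It averaged 6.93 ± 0.04 on the LRRK2-GS arrays (SD, n = 3) and 7.05 ± 0.03 on the LRRK2-WT arrays (SD, n = 2), with single values of 6.89, 6.97 and 6.91, against 7.02 and 7.07. The groups did not overlap, and the difference was -0.12 (limma 95% interval -0.21 to -0.03, adjusted p = 0.826). Eif3c, another octamer subunit, read 8.61, 8.30 and 7.87 on the LRRK2-GS arrays, against 8.36 and 8.44 on the LRRK2-WT arrays. Its range of 0.74 was the widest of the eIF3 genes and came from the LRRK2-GS arrays, whose highest and lowest values lay on either side of LRRK2-WT. The difference was -0.14 with an interval of -0.88 to 0.59. Eif3j1, a loosely bound subunit whose sequence is shared in part with Eif3j2, read 3.97, 3.89 and 3.95 on the LRRK2-GS arrays, against 3.94 and 4.33 on the LRRK2-WT arrays. Its difference of -0.20 rested on LRRK2-WT array 2 and was -0.01 without it. Eif3b had the largest positive difference of the group (0.16, SE 0.23). For Eif3d, which can itself bind the cap of some mRNAs, the values were 7.71, 7.36 and 7.17 on the LRRK2-GS arrays and 7.32 and 7.35 on the LRRK2-WT arrays. In Eif3f, Eif3h, Eif3e and Eif3m the order differed, since LRRK2-GS array 2 alone lay above both LRRK2-WT arrays. Eif3f read 7.29, 7.64 and 7.24 on the LRRK2-GS arrays, against 7.38 on both LRRK2-WT arrays, and Eif3h 7.77, 8.14 and 7.81, against 7.97 on both. The remaining subunits Eif3i (-0.05) and Eif3k (-0.10) overlapped between genotypes.

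The 15 members of the eIF4 group, which holds the cap-binding complex and its regulators, had 8 higher, 6 lower and 1 equal, with a median of 0.00. Eif4a1 averaged 12.48 ± 0.02 on the LRRK2-GS arrays (SD, n = 3) and 12.43 ± 0.01 on the LRRK2-WT arrays (SD, n = 2). The 3 LRRK2-GS arrays read 12.47, 12.51 and 12.47, against 12.43 on both LRRK2-WT arrays, a difference of 0.05 (limma adjusted p = 0.826) that is small although the groups did not overlap. A further Eif4a1 probe set, at 5.58, read 5.85, 5.66 and 5.39 on the LRRK2-GS arrays, against 5.42 and 5.59 on the LRRK2-WT arrays, and there the groups overlapped. Eif4ebp2, a repressor that binds the cap-binding protein until mTORC1 phosphorylates it, read 7.16, 7.01 and 7.12 on the LRRK2-GS arrays, against 7.20 and 7.32 on the LRRK2-WT arrays. All 3 LRRK2-GS values lay below both LRRK2-WT values, with a difference of -0.16 (interval -0.36 to 0.03, adjusted p = 0.826, limma). Its relative Eif4ebp1 read 7.11, 6.87 and 6.87 on the LRRK2-GS arrays, against 6.83 and 6.87 on the LRRK2-WT arrays, and overlapped. Eif4g3, a scaffold of the complex, had one of the widest spreads, with 6.77, 6.31 and 5.86 on the LRRK2-GS arrays, against 6.21 and 6.31 on the LRRK2-WT arrays. Eif4g2, a scaffold without a cap-binding site, read 9.75, 9.82 and 9.48 on the LRRK2-GS arrays, against 9.66 and 9.74 on the LRRK2-WT arrays. In both scaffolds LRRK2-GS array 3 was the lowest of the 5 arrays. The helicase partner Eif4b (-0.16), Eif4a2 (-0.13) and Eif4h (-0.02) were lower, each with overlapping groups. For Eif4a2 a further probe set of similar level (7.31, against 7.38) differed by 0.03, and another, at 4.38, by -0.15. Its direction thus depends on the probe set. Eif4enif1 (0.08), the cap-binding protein's nuclear transporter, and Eif4e3 (0.12) were higher, each with overlapping or tied groups. The 2 largest differences of the group came from probe sets below background. Eif4a3l1, named as an Eif4a3-like gene, read 1.88, 1.84 and 1.88 on the LRRK2-GS arrays, against 2.10 and 2.42 on the LRRK2-WT arrays, and Eif4e1b 2.02, 2.33 and 2.09, against 1.88 and 1.71. In neither gene did the groups overlap, and Eif4a3l1 shares a further probe set with Eif4a3, so that the reading is uncertain. Eif4a3 (0.14) and Eif4e2 (0.00) overlapped between the genotypes.

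Of the 11 other initiation factors 5 were higher, 5 lower and 1 equal, with a median of 0.00. Eif2a, which can deliver initiator tRNA without being a subunit of eIF2, read 6.29, 6.40 and 6.18 on the LRRK2-GS arrays, against 6.40 and 6.71 on the LRRK2-WT arrays. The difference was -0.26 (SE 0.13), and LRRK2-GS array 2 tied LRRK2-WT array 1. Leaving out LRRK2-WT array 1 gave -0.42, while -0.11 was left when LRRK2-WT array 2 was dropped. Eif1a, a scanning factor, read 7.32, 7.07 and 6.89 on the LRRK2-GS arrays, against 6.83 and 6.97 on the LRRK2-WT arrays (difference 0.19, SE 0.16). Its X-linked relative Eif1ax differed by -0.03 (6.77, 7.10 and 6.84 on the LRRK2-GS arrays, against 6.90 and 6.97 on the LRRK2-WT arrays). Eif5, which activates the GTPase of eIF2, read 8.37, 8.67 and 8.37 on the LRRK2-GS arrays, against 8.25 and 8.37 on the LRRK2-WT arrays, so that LRRK2-GS array 2 alone carried most of the difference of 0.16. Eif6, which keeps the large ribosomal subunit from joining early, had the widest range of all members, 0.97, with 7.11, 6.70 and 6.14 on the LRRK2-GS arrays, against 6.65 and 6.72 on the LRRK2-WT arrays. Its difference was -0.03 with all arrays and 0.22 without LRRK2-GS array 3. Eif5b, the GTPase of subunit joining, read 6.18 and 6.15 on LRRK2-GS arrays 1 and 2, against 6.15 on both LRRK2-WT arrays, and LRRK2-GS array 3 differed from these by -0.15. Eif5a, the hypusine-bearing factor that helps ribosomes through difficult sequences, differed by 0.04. Eif1b read 5.32, 5.35 and 5.21 on the LRRK2-GS arrays, all between the LRRK2-WT values of 4.84 and 5.51. Eif1ad (0.15) and Eif5a2 (-0.03) tied between the genotypes.

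The elongation factor genes split 6 higher to 2 lower, their median difference being 0.07. Eef1e1 showed the largest positive difference of the members when all 5 arrays were used. It read 6.96, 6.89 and 6.56 on the LRRK2-GS arrays, against 6.20 and 6.66 on the LRRK2-WT arrays. LRRK2-GS array 3 lay between the LRRK2-WT arrays, and the difference of 0.37 had an interval of -0.25 to 1.00 (limma adjusted p = 0.826). It rested on LRRK2-WT array 1, being 0.14 when that array was left out and 0.60 when LRRK2-WT array 2 was. In the fit that lacks LRRK2-WT array 1, Eef1akmt3 (0.46), Eif4e1b (0.44), Eif2s2 (0.40) and Eef1aknmt (0.17) stood above Eef1e1. Without LRRK2-GS array 1, where Eef1e1 was 0.29, Eif4e1b stood above it (0.41). Eef1a1, the main carrier of charged tRNAs, read 11.58, 11.59 and 11.41 on the LRRK2-GS arrays, against 11.57 and 11.68 on the LRRK2-WT arrays, a difference of -0.10 (SE 0.08). A further Eef1a1 probe set differed by 0.00. Eef1a2, the form known from neurons and muscle, read 4.79, 4.73 and 4.98 on the LRRK2-GS arrays, against 4.67 and 4.79 on the LRRK2-WT arrays, and was the only eEF gene in which LRRK2-GS array 3 was highest. Eef1b2, the exchange subunit, differed by 0.05, and Eefsec, which carries selenocysteine tRNA, by 0.08. The enzymes that modify elongation factors had 5 higher, 0 lower and 1 equal of 6, with a median of 0.12, but each of the 6 held tied values. Eef1akmt3, a lysine methyltransferase of eEF1A below background, read 3.42 on all 3 LRRK2-GS arrays, against 3.42 and 2.95 on the LRRK2-WT arrays, and its difference of 0.23 was 0.00 without LRRK2-WT array 2. Eef1akmt2 (0.17), Eef2kmt (0.13) and Eef1aknmt (0.12) overlapped or tied between the genotypes. Eef2k, the kinase that inactivates eEF2, read 4.42, 4.14 and 4.76 on the LRRK2-GS arrays, against 4.42 and 4.38 on the LRRK2-WT arrays. Its difference of 0.04 was -0.12 without LRRK2-GS array 3, which held the highest value.

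**Figure D4:**
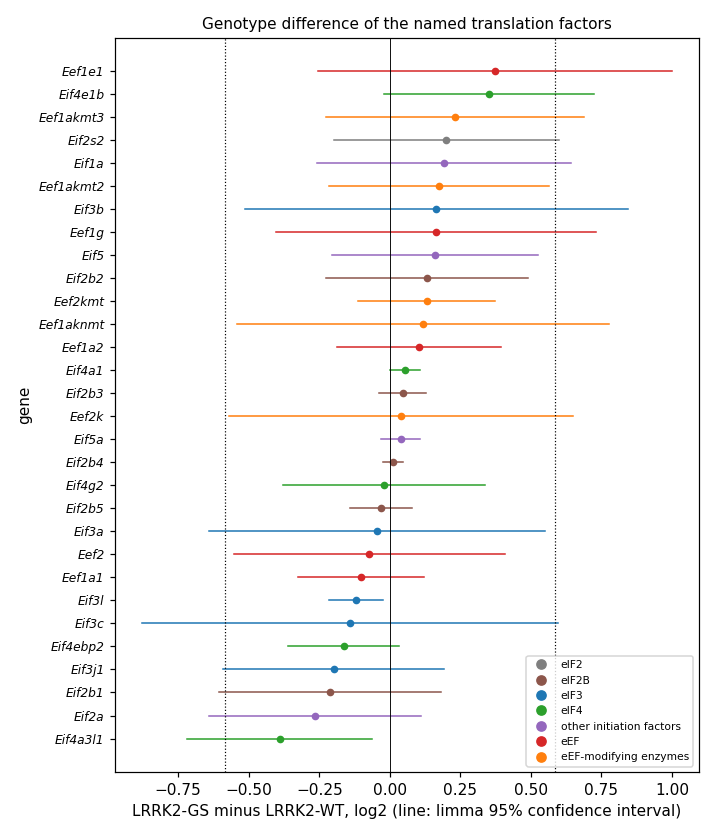
Difference between LRRK2-GS and LRRK2-WT (x axis, log2) for the 30 named members (rows), with points for the limma estimate, lines for its 95% confidence interval and dotted lines at 1.5-fold. The intervals of 28 of the 30 include 0, and those of Eif3l and Eif4a3l1 do not, while several, such as those of Eef1e1, Eif3b and Eif3c, reach past a dotted line.

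The regulators of these factors were counted from lists of genes that are no members. None was called in limma in any list. The eIF2 kinases, phosphatase subunits and partners split 6 higher to 7 lower (13 genes, median difference -0.02). PERK (Eif2ak3) differed by 0.06, GCN2 (Eif2ak4) by -0.04, PKR (Eif2ak2) by -0.16 and HRI (Eif2ak1) by -0.03. The phosphatase subunit Ppp1cb differed by -0.14, with overlapping groups. Ppp1r15a, the stress-induced subunit that directs a phosphatase to eIF2, was the only one over 1.5-fold. It read 8.64, 7.77 and 8.82 on the LRRK2-GS arrays, against 8.43 and 6.92 on the LRRK2-WT arrays. The groups overlapped, and the difference of 0.74 (SE 0.64, adjusted p = 0.826) was -0.02 without LRRK2-WT array 2. Of 14 measured genes of mTORC1 and cap-binding control, 5 were higher, 8 lower and 1 equal, among them the mTORC1 inhibitors Tsc1 (-0.28) and Tsc2 (-0.07). For Tsc1 the value was -0.08 once LRRK2-WT array 1 was dropped, while dropping LRRK2-WT array 2 gave -0.49. Initiation helpers outside the Eif names had 6 higher and 5 lower of 11. Mcts2 differed by 0.24, and its groups tied. Paip2b, a repressor of poly(A)-binding protein, read 3.78, 3.67 and 3.62 on the LRRK2-GS arrays, against 4.36 and 4.02 on the LRRK2-WT arrays, with no overlap and a difference of -0.50 (limma adjusted p = 0.826). Termination, rescue and recycling factors had 3 higher and 5 lower of 8. Among them Gspt1, the release factor eRF3a, differed by -0.15 with no overlap and Pelo, which rescues stalled ribosomes, by 0.23, or by 0.14 when its probe sets were averaged. Of 8 mitochondrial translation factors 5 were higher and 3 lower. Mrrf, the mitochondrial ribosome recycling factor, read 6.33, 6.19 and 6.22 on the LRRK2-GS arrays, against 6.57 and 6.48 on the LRRK2-WT arrays. The groups did not overlap, with a difference of -0.28 (limma adjusted p = 0.826), while the elongation factor Tufm differed by 0.09, or by 0.01 when its probe sets were averaged. The 5 measured enzymes that build diphthamide on eEF2 had 2 higher, 2 lower and 1 equal. Dph5 differed by 0.10 and Dph2 by 0.03, each with tied or overlapping groups. In each of these 6 lists the signal summed over the genes, which the brightest genes dominate, was lowest on LRRK2-GS array 3. Termination factors summed to 9.39, 9.45 and 9.07 (log2) on LRRK2-GS arrays 1, 2 and 3, against 9.23 and 9.36 on the LRRK2-WT arrays. The mTORC1 list summed to 11.71, 11.64 and 11.40 on the LRRK2-GS arrays, against 11.41 and 11.54 on the LRRK2-WT arrays, so that array 3 was barely below LRRK2-WT array 1. The mitochondrial factors were nearly level, from 9.05 to 9.07 on the LRRK2-GS arrays and at 9.07 on both LRRK2-WT arrays. By median, LRRK2-GS array 3 was lowest in the initiation helpers and diphthamide enzymes, but highest in the eIF2 list and the mitochondrial factors. The eIF2 list medians were 5.98, 6.30 and 6.39 on the LRRK2-GS arrays, against 6.13 and 5.93 on the LRRK2-WT arrays. In the other lists LRRK2-GS array 3 tied with another array. A low LRRK2-GS array 3 was thus not particular to the members in sums, but only some list medians shared it.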

How the data were processed

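The authors hybridised RNA to Affymetrix Mouse 2.0 ST arrays, processed them in the Affymetrix Command Console software and deposited log2 values for 33640 probe sets, which were analysed without further normalization. How the software corrected the background, summarized probes and normalized arrays is not stated. Of the probe sets, 23396 carried 1 symbol in the platform annotation and were tested, 1812 carried several and 8432 none, and 23203 of those tested were matched by gene ID to GRCm38.p6. Genotypes, as labelled, were compared on all 5 arrays in R 4.3.3 with lmFit and eBayes of limma 3.58.1 (two-sided, no replicate block), and p-values were adjusted by Benjamini-Hochberg across the 23396 probe sets. The steps were tested on simulated data. The number of arrays limits the precision.

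Members, lists and tests were chosen with earlier results of these data known. Named were every eIF2 and eIF2B subunit, in each other group the 4 members with the smallest p and the 2 with the highest mean, members over 1.5-fold or above background with no overlap, and in each list of regulators the 2 genes with the smallest p, those over 1.5-fold and the eIF2 kinases. Other members are described for their spread over arrays or to account for their group, chosen after their values were seen. Alternatives were array weights, a robust prior with a trend, cyclic loess or quantile normalization, a filter on dim probe sets, a replicate block, averaging the probe sets of a gene, the methods' t-test and each array left out. Gene Ontology enrichment was not run. Replicate numbers 1 and 2 are shared by the genotypes, but nothing in the labels says that they pair arrays.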

Additional observations from a re-analysis of the deposited data

How the results depend on the processing

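No member was called under any alternative run, and 3 LRRK2-GS and 2 LRRK2-WT arrays are too few to settle small differences. Quantile and cyclic loess normalization break ties: all 3 LRRK2-GS arrays then lay above both LRRK2-WT arrays for 17 and 7 members (15 and 5 of them by under 0.05) and below for 5 and 6, while the shares over all probe sets were 9.71% and 6.42% above and 18.9% and 19.1% below. The count above was 1 without dim probe sets and 1 when the probe sets of a gene were averaged. The eIF2B median became 0.032 (quantile) and 0.015 (cyclic loess), the eIF4 median 0.028 (quantile), the all-member median 0.049 (quantile) and the eIF3 median -0.016 (quantile), -0.031 (cyclic loess) and -0.019 (array weights). Directions reversed for Eef2k (-0.022) and Eif4g2 (0.0066) with array weights, for Eef1a1 with quantile normalization (0.016) and for Eif4g2 with cyclic loess (0.014). The cause of these changes was not tested. The replicate numbers gave no sign of pairing, since deviations correlated at -0.126 for number 1 and 0.0878 for number 2. With the replicate block LRRK2-GS array 3 has no partner and drops out of the difference. Under this block 0 members were called, the eIF4 median was 0.061 and the median of the eEF-modifying enzymes 0.18, and Eef2 (0.064), Eef2k (-0.12), Eif3a (0.12), Eif3c (0.052) and Eif4g2 (0.079) reversed.

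Leaving out each array in turn gave 3 to 14 members above and 3 to 9 below. The counts above were 3, 4 and 12 without LRRK2-GS array 1, 2 or 3 and 8 and 14 without LRRK2-WT array 1 or 2, and those below 5, 9 and 3 and then 9 and 6. With fewer arrays the shares over all probe sets also rose, to between 6.87% and 17.0% above and between 6.79% and 15.4% below. The medians ranged from 0.00 to 0.064 (all members), 0.00 to 0.40 (eIF2), 0.00 to 0.025 (eIF2B), -0.11 to 0.058 (eIF3), -0.0037 to 0.061 (eIF4), -0.029 to 0.035 (other initiation factors), 0.0037 to 0.13 (eEF) and 0.039 to 0.18 (eEF-modifying enzymes). Differences changed sign for Eef2 (-0.14 to 0.064), Eef2k (-0.12 to 0.19), Eif3a (-0.16 to 0.12), Eif3c (-0.32 to 0.052) and Eif4g2 (-0.088 to 0.079), each without LRRK2-GS array 3 and Eif4g2 also without LRRK2-WT array 2. They also did for Eef1aknmt (-0.061 to 0.26) and Dph2 (-0.080 to 0.096) without LRRK2-GS array 1, and for Ppp1r15a (-0.020 to 1.496) without LRRK2-WT array 2. When LRRK2-WT array 1 was dropped, the differences were 0.46 for Eef1akmt3, 0.40 for Eif2s2 and -0.55 for Eif4a3l1, all under 1.5-fold. Fits without a LRRK2-WT array take the spread of LRRK2-GS arrays for the lone LRRK2-WT array left. No adjusted p is given for them. In the other settings the smallest adjusted p of a member was 0.671 to 0.894 in limma, adjusted over the probe sets or genes that each setting tested.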
